A study of Danio rerio with 5 samples.

Results

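The muscle sarcomere genes are the genes of the contractile unit of striated muscle, chosen here by their symbols. They comprised the genes of the table whose symbols match a fixed set of name stems, covering most genes named as a myosin heavy or light chain, troponin, tropomyosin, skeletal or cardiac alpha-actin, striated alpha-actinin, myosin binding protein C, myozenin, myomesin, titin, nebulin or telethonin, which gave 85 of 21854 genes. The match was by symbol alone, but members and lists were chosen with earlier results of these data known. The stems missed some light chain genes of the table, among them mylpfa of fast muscle and cmlc1 of the heart, which are not counted as members. By symbol they were split into 25 fast skeletal, 12 slow skeletal and 14 heart genes, 11 genes of Z-discs, M-bands and giant proteins shared by striated muscles, 13 smooth and non-muscle genes that share the same names, and 10 genes whose fibre type was not known for certain. The last group also took in tnni3k, which is a kinase and not a troponin.

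RNA-seq was run on pools of 10 whole zebrafish larvae, aged 2 weeks after fertilization. There were 2 libraries labelled WT (wild type) and 3 labelled Mutant, homozygous for the zbtb24 mk22 deletion allele, a fish model of ICF syndrome, an inherited immunodeficiency with unstable centromeres and facial anomalies. The labels name no treatment, and nothing in them says which clutch a pool came from, so p-values measure the spread between these pools. The series description gives 3 pools per genotype, and 2 libraries labelled WT were analysed here. They are named by the numbers of their columns, 2 and 3. Transcripts of zbtb24 itself went against the labels, with scaled counts of 127 and 77.3 under the WT label against 155, 175 and 282 under the Mutant label (log2 fold change 0.98, SE 0.28, adjusted p = 0.0642, limma). The gene-level count does not show which exons its reads came from, so reads outside the deleted part are included. Transcripts of cdca7a, an orthologue of a gene that ZBTB24 activates in human cells, were 299.6 and 563 under the WT label against 255, 199 and 40.4 (log2 fold change -1.68, SE 0.63, adjusted p = 0.127, not called). Every direction below is between libraries as labelled. The labels name fin as the source, but markers of heart, lens, liver, exocrine pancreas and neurons were detected in all 5 libraries.

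A sarcomere is built of interleaved filaments. Thick filaments are bundles of myosin heavy chains, whose necks carry essential and regulatory light chains, and thin filaments are actin wound with tropomyosin and troponin, the calcium switch of contraction. Z-discs, held together by alpha-actinin, anchor the thin filaments, titin runs from the Z-disc to the M-band, where myomesins link the thick filaments, and nebulin lies along the thin filament. In the zebrafish trunk, fast fibres make up most of the myotome and slow fibres form a superficial layer, and the fibre types and the heart use different members of most of these families.

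Depth was 23796792 to 28601962 reads in genes per library. Values are scaled counts, that is, reads corrected for the size factor of each library, and fold changes are Mutant over WT on the log2(scaled count + 1) scale. The 20307 genes whose mean scaled count reached 10 were tested with limma, and those with an adjusted p (Benjamini-Hochberg over all genes tested) under 0.05 were called. On this scale 674 genes were called higher under the Mutant label and 544 lower. With columns rescaled to equal totals the split was 481 higher and 1103 lower. In bulk RNA of whole larvae, a change in the number of muscle cells and a change in RNA per muscle cell cannot be told apart.

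Sarcomere genes were higher in the libraries labelled Mutant across the fibre classes, by modest amounts. Of the 84 members tested, 14 were called higher (16.7%, against 3.32% of all genes tested) and 0 were called lower (against 2.68%). At an unadjusted p under 0.05, limma gave 48 members higher (57.1%, against 13.1% of all genes) and 0 lower. Over all 20307 genes tested, 2757 were lower at that threshold. The median log2 fold change was 0.30 over the members and -0.00 over all genes, and 75 members had a positive value (89.3%, against 49.8%). All 3 libraries labelled Mutant lay above both labelled WT for 53 members (63.1%, against 22.3% of all genes) and below both for 2, myh14 and tnni3k (2.38%, against 22.7%). For the other 29 members the groups overlapped. The filter on low values removed 1 member, tnni1a, a slow-type troponin I gene with 1.72 and 0 scaled counts under the WT label and 4.95, 9.69 and 4.04 under the Mutant label. No tested member passed it through a single group, since the lowest mean in the libraries labelled WT was 26.1 (tnni3k).

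The calls depended on which libraries entered. Without the WT library of column 2 or Mutant replicate 2, 0 members were called by limma, with 25 and 40 members higher at an unadjusted p under 0.05. Without Mutant replicate 1 there was 1. Without the WT library of column 3 there were 13, of which 8 were among the original 14, and without Mutant replicate 3 there were 19, of which 11 were. Over all genes the counts called higher, 674 in the full fit, were 31, 48, 240, 1317 and 662 in these fits, in the same order. The member median stayed between 0.23 and 0.34 when any single library was left out. Where columns were rescaled to equal totals or quantile normalized, 8 members were called higher in each case and the member median was 0.22 and 0.23, with all-gene medians of -0.09 and -0.00.

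**Figure D1:**
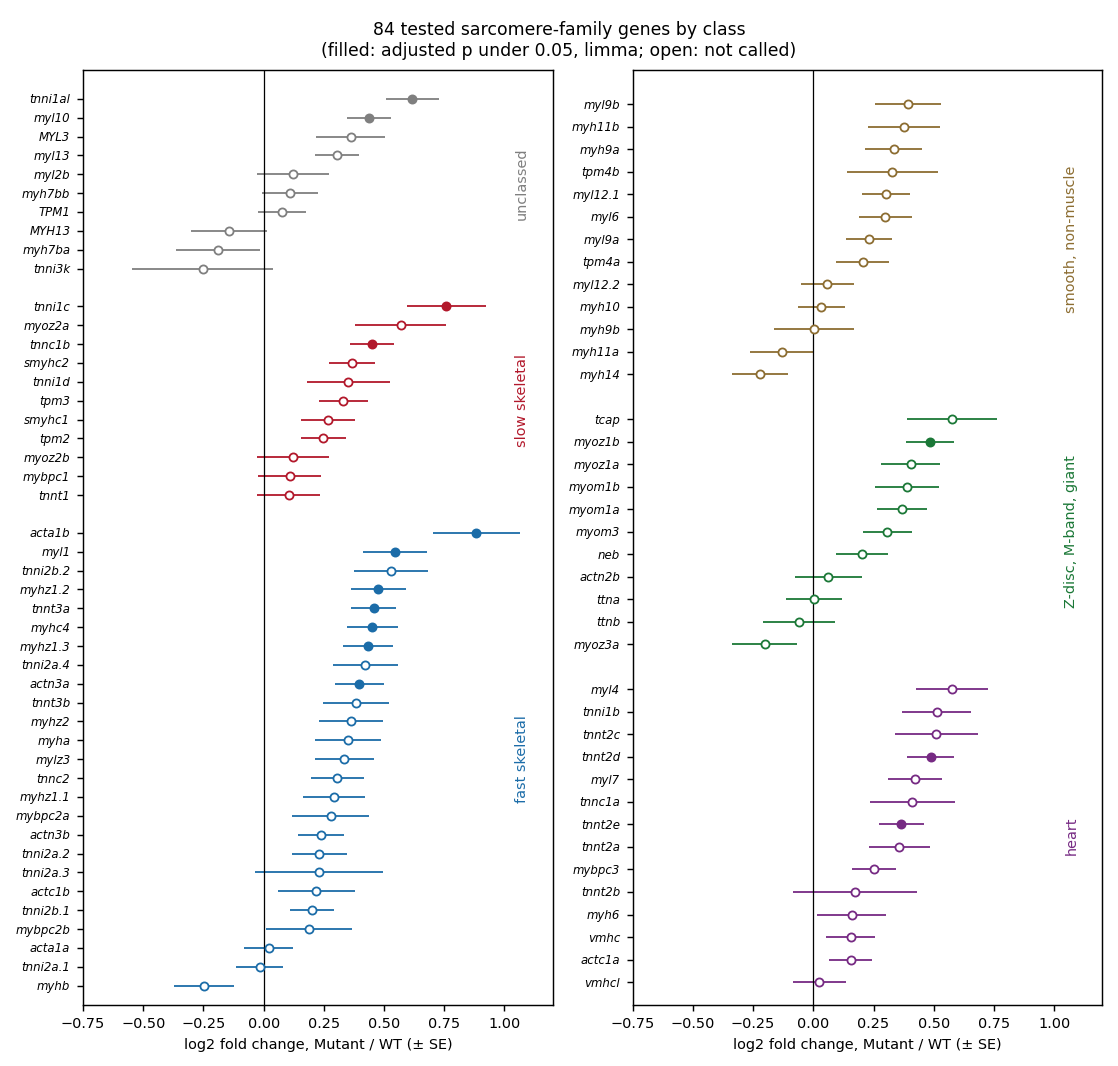
Log2 fold change (Mutant over WT) of the 84 tested members, with standard errors as bars, grouped by class. Filled points are the 14 members called at an adjusted p under 0.05 (limma), and 75 of the 84 points lie to the right of 0.

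Summed over genes, the members took a larger part of the reads under the Mutant label. The 85 members together took 5.72% and 5.85% of gene reads under the WT label, and 7.17%, 6.67% and 6.38% under the Mutant label. The groups did not overlap. Most of this was the fast class, whose summed scaled counts were 1153550 and 1214960 against 1589510, 1473450 and 1394470, a ratio of means of 1.25. The slow class had 60827 and 60505 against 70626, 76624 and 75298 (ratio 1.22), and the heart class 13227 and 13759 against 15916, 16398 and 16261 (means 13493 and 16192). In these 3 classes the groups did not overlap, also as a share of reads, where the ratios were 1.18, 1.15 and 1.13 and all higher under the Mutant label. The heart class rests on symbols and includes tnnt2d and tnnt2e, its only 2 called genes, whose site of expression was not tested. The heart genes myl7, vmhc and myh6 alone summed to 2264 and 2421 against 2586, 2769 and 2866 (means 2343 and 2741). Their groups did not overlap on either scale. The class of Z-disc, M-band and giant proteins overlapped between the groups, with 125823 and 123069 against 149688, 121790 and 130732 (ratio 1.08). Smooth and non-muscle members summed to 31890 and 38112 against 40619, 40112 and 38480 (ratio 1.14). Those groups did not overlap in scaled counts but overlapped as a share of reads. The unclassed members had ratios of 1.23, and 1.16 as a share of reads, without overlap on either scale. The sums were not tested, since an exact permutation test of 2 against 3 libraries cannot go below p = 0.1.

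Among the thin filament genes, acta1b, a skeletal muscle alpha-actin (ENSDARG00000055618, chromosome 13), had the largest log2 fold change of the 84 members tested. It had 21412 and 26462 scaled counts under the WT label and 53960, 46120 and 34043 under the Mutant label. All 3 of the latter were higher, by 0.88 on the log2 scale (SE 0.18, adjusted p = 0.0282). The other skeletal actin genes were not called. Its paralogue acta1a had 11644 and 10963 against 12557, 10816 and 11090, with a log2 fold change of 0.02 (95% interval -0.20 to 0.25, adjusted p = 0.915). The most read gene of the class, actc1b, an alpha-actin of embryonic and larval skeletal muscle, had 350040 and 395040 against 509230, 394120 and 404230, a log2 fold change of 0.22 with overlapping groups (SE 0.16, adjusted p = 0.406). Within the reads of these 3 actins, acta1b made up 5.59% and 6.12% under the WT label and 9.37%, 10.2% and 7.58% under the Mutant label. The Wilson 95% interval of each share was within 0.0917 percentage points, which covers counting error only. The share of acta1a was 3.04% and 2.53% against 2.18%, 2.40% and 2.47%, lower in every library labelled Mutant. Actin genes are close to identical in their coding parts, so reads may have been split or dropped among them by the counting. The heart alpha-actin actc1a had 3394 and 3328 against 3594, 3784 and 3860 (log2 fold change 0.16, adjusted p = 0.294).

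Troponin, the complex of a tropomyosin-binding (T), a calcium-binding (C) and an inhibitory (I) subunit, held 6 of the 14 calls. Of 8 troponin T genes, 3 were called higher (37.5%, against 3.32% of all genes) and all 8 had positive values (median 0.37). The fast gene tnnt3a (ENSDARG00000030270, chromosome 25) had 3558 and 3424 against 5067, 4785 and 4535 (log2 fold change 0.46, SE 0.09, adjusted p = 0.0286). In the troponin T2 family, named for the heart, tnnt2d (ENSDARG00000002988, chromosome 25) had 1200 and 1154 against 1583, 1759 and 1614 (0.49, SE 0.10, adjusted p = 0.0280). Its relative tnnt2e (ENSDARG00000045822, chromosome 4) had 2297 and 2361 against 3124, 3040 and 2843 (0.37, SE 0.09, adjusted p = 0.0483). In all 3 genes the groups were well apart.

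Of 10 troponin I genes tested, 2 were called higher (20%, against 3.32% of all genes). The slow gene tnni1c (ENSDARG00000042559, chromosome 18) had 341 and 441 against 632, 793 and 566 (log2 fold change 0.76, SE 0.16, adjusted p = 0.0330), the largest of the slow class. The gene tnni1al, left without a fibre class (ENSDARG00000036671, chromosome 25), had 1108 and 1044 against 1497, 1826 and 1642 (0.62, SE 0.11, adjusted p = 0.0215), the lowest adjusted p among the members. None of the 6 fast troponin I genes was called, in either direction, where 3.32% of all genes were called higher and 2.68% lower. Their log2 fold changes ran from -0.02 for tnni2a.1 to 0.53 for tnni2b.2, and tnni2a.1 had 1794 and 1762 against 1686, 1700 and 1894. The heart troponin I tnni1b had 0.51 (adjusted p = 0.0637).

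All 3 troponin C genes had every library labelled Mutant above both labelled WT, as had 22.3% of all genes. Of the 3, 1 was called higher (33.3%, against 3.32% of all genes). The slow and cardiac type gene tnnc1b (ENSDARG00000037539, chromosome 23) was called, with 2191 and 2333 against 2996, 3188 and 3088 (log2 fold change 0.45, SE 0.09, adjusted p = 0.0282). The fast gene tnnc2 had 0.31 and the heart gene tnnc1a 0.41, neither called (adjusted p = 0.119 and 0.171). The 5 tropomyosins ranged from 0.08 for TPM1 to 0.33 for tpm3, a slow muscle tropomyosin with 11189 and 12735 against 14798, 15960 and 14343 (adjusted p = 0.0806).

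**Figure D2:**
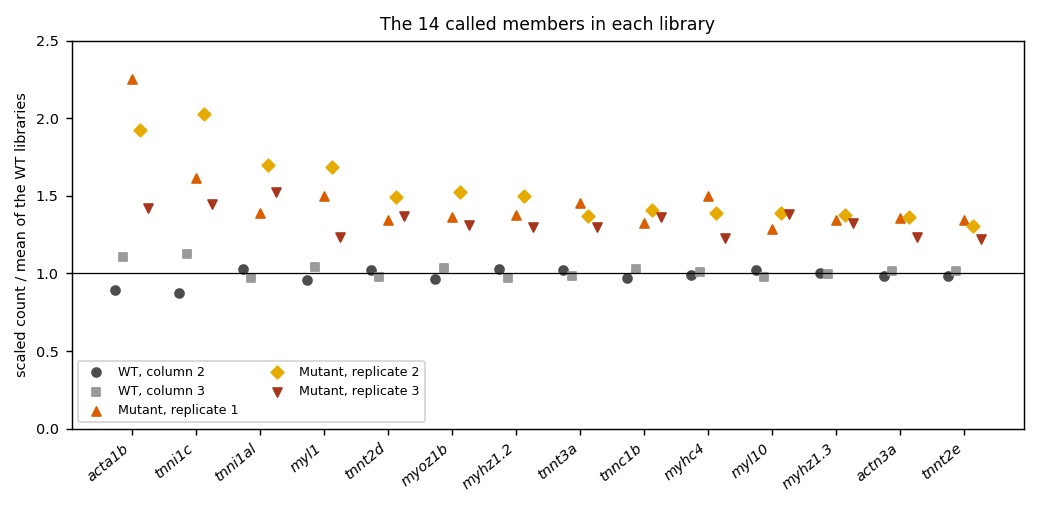
Scaled count of each of the 14 called members in each library, divided by the mean of the 2 libraries labelled WT (the line at 1). Every point of the libraries labelled Mutant lies above both WT points of the same gene, with the widest spread for acta1b.

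In the thick filament, 3 of 21 myosin heavy chain genes were called higher (14.3%, against 3.32% of all genes). All 3 belonged to a single cluster of fast genes. In the RefSeq annotation 6 fast heavy chain genes follow each other on chromosome 5, in the order myhz2, myhc4, myha, myhz1.3, myhz1.2, myhz1.1. Each of the 6 had every library labelled Mutant above both labelled WT, as had 22.3% of all genes. Together they had 454441 and 424666 scaled counts against 559915, 579396 and 548016, a ratio of means of 1.28. The called genes were myhz1.2 (ENSDARG00000067995), with 67218 and 63581 against 90018, 97994 and 85177 (log2 fold change 0.48, SE 0.11, adjusted p = 0.0421), myhc4 (ENSDARG00000035438), with 2477 and 2527 against 3754, 3469 and 3066 (0.45, SE 0.11, adjusted p = 0.0405), and myhz1.3 (ENSDARG00000067997), with 58626 and 58143 against 78416, 80353 and 77557 (0.43, SE 0.10, adjusted p = 0.0421). The most read gene of the cluster, myhz1.1, had 236100 and 215860 against 261140, 283500 and 284640 (0.29, SE 0.13, adjusted p = 0.180). These genes are similar copies, so paired reads of 50 bases may have been split or dropped among them by the counting. Their sequences were not compared here. Reads that were dropped would be missing from the sum as well.

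Read shares of the copies varied between libraries, and differences between the groups were not tested. The share of myhz1.2 in the reads of the cluster was 14.8% and 15.0% under the WT label and 16.1%, 16.9% and 15.5% under the Mutant label, without overlap. That of myhz1.1 was 52.0% and 50.8% against 46.6%, 48.9% and 51.9%, and the groups overlapped. That of myhz2 was 19.7% and 19.8% against 22.4%, 19.6% and 17.7%, so the libraries labelled Mutant spread to both sides of those labelled WT.

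None of the 15 heavy chains outside the cluster was called, where 3.32% of all genes were called higher and 2.68% lower. The main slow gene smyhc1 had 33529 and 30201 against 35100, 39084 and 40925 (log2 fold change 0.27, SE 0.11, adjusted p = 0.160), and its copy smyhc2 had 0.36 (adjusted p = 0.0530). Slow reads made up 7.18% and 6.99% of the slow and chromosome 5 fast myosin reads under the WT label, and 6.24%, 6.63% and 7.31% under the Mutant label. The ranges overlapped, so no difference in the slow to fast proportion was seen beyond the spread. The fast gene myhb, on chromosome 6, had 2530 and 3282 against 2642, 2394 and 2267 with overlapping groups (log2 fold change -0.25, SE 0.13, adjusted p = 0.238). Of the heart genes, the ventricular vmhc had 0.16 (95% interval -0.07 to 0.38), the related vmhcl 0.03 (-0.22 to 0.27) and the atrial myh6 0.16 (-0.16 to 0.48), and none was called.

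**Figure D3:**
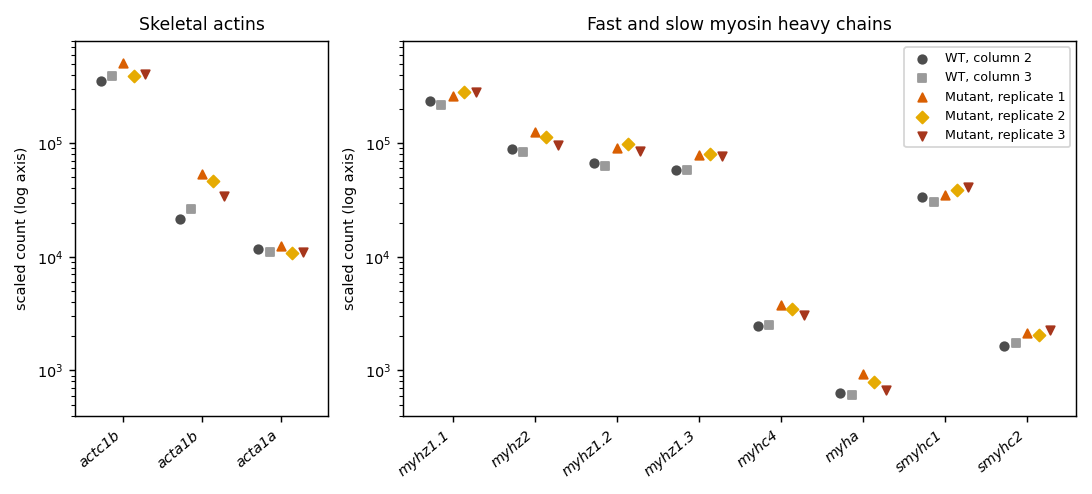
Scaled counts (log axis) of the 3 skeletal actins, and of the 6 fast myosin heavy chains of chromosome 5 and the 2 slow ones, in each of the 5 libraries. The 6 fast myosins, the 2 slow ones and acta1b lie higher in all libraries labelled Mutant. Values of acta1a in those libraries lie within 10816 to 12557, around the WT values.

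Of 13 myosin light chain members, 2 were called higher (15.4%, against 3.32% of all genes). All 13 had a positive log2 fold change (median 0.34), and for 11 all libraries labelled Mutant were above both labelled WT (84.6%, against 22.3%), while myl12.2 and myl2b overlapped. The fast essential light chain gene myl1 (ENSDARG00000014196, chromosome 9) had 15420 and 16821 against 24122, 27184 and 19867 (log2 fold change 0.55, SE 0.13, adjusted p = 0.0440). The regulatory light chain gene myl10 (ENSDARG00000062592, chromosome 10) had 6732 and 6411 against 8475, 9124 and 9086 (0.44, SE 0.09, adjusted p = 0.0304). Among the fast light chain members mylz3 had most reads, with 100140 and 119200 against 142230, 135190 and 136130 (0.34, SE 0.12, adjusted p = 0.124). The fast light chain gene mylpfa, which is no member, had more, with 243840 and 250180 against 320260, 336090 and 304300 (0.37, SE 0.13, adjusted p = 0.104). Among the light chains without a fibre class, myl13 had most reads, with 9162 and 8754 against 10762, 11000 and 11441 (0.31, SE 0.09, adjusted p = 0.0731). In the heart, the atrial light chain gene myl4 had 148 and 183 against 256, 254 and 228 (0.58, SE 0.15, adjusted p = 0.0513), and myl7, the regulatory light chain that marks zebrafish cardiomyocytes, had 601 and 561 against 726, 763 and 848 (0.42, SE 0.11, adjusted p = 0.0568). Both had an adjusted p just above the threshold. Their groups did not overlap, with the Mutant label above, as for 22.3% of all genes. Of the 4 myosin binding protein C genes, 0 were called by limma (range 0.11 to 0.28, 1 at an unadjusted p under 0.05, higher).

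At the Z-disc, myoz1b, a myozenin that binds alpha-actinin and calcineurin (ENSDARG00000071445, chromosome 12), had 2735 and 2942 against 3873, 4322 and 3731 (log2 fold change 0.48, SE 0.10, adjusted p = 0.0294). The fast fibre alpha-actinin actn3a (ENSDARG00000013755, chromosome 21) had 26209 and 27168 against 36209, 36418 and 32900 (0.40, SE 0.10, adjusted p = 0.0486). Both were separate between the groups. Telethonin, tcap, which caps titin at the Z-disc, had the largest value of its class and a wide spread, with 921 and 1132 against 1947, 1551 and 1168 (0.58, SE 0.19, adjusted p = 0.0919). The 3 myomesins of the M-band were above in every library labelled Mutant, as were 22.3% of all genes. Their log2 fold changes were 0.31 to 0.39 and none was called.

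Of the 3 giant proteins of the class, none was called. The titin gene ttna had 46331 and 45983 against 51165, 41601 and 46313, a log2 fold change of 0.00 (95% interval -0.26 to 0.26, adjusted p = 0.996). Its paralogue ttnb had 33091 and 29464 against 36186, 25039 and 29694 (-0.06, interval -0.39 to 0.27, adjusted p = 0.826). The values of nebulin, neb, were 26701 and 26495 against 33151, 27840 and 31064 (0.20, interval -0.04 to 0.44, adjusted p = 0.257). The sign of ttna and of ttnb changed between settings.

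Among genes that could be matched to a genomic span (82.0% of those tested, RefSeq annotation of assembly GRCz12tu), the fold change moved with gene length. Over all genes the median was 0.09 for the 5552 genes with the shortest spans, 0.02 for the next 5552 and -0.13 for the 5553 with the longest. Members in the same ranges had medians of 0.36 (30 members), 0.36 (24) and 0.22 (22). The part of gene length or RNA quality in the result was not tested.

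The smooth and non-muscle members had a median of 0.23. It lay below those of the 4 striated classes and above that of the 10 unclassed members (0.12). By limma, 0 of 13 were called in either direction. At an unadjusted p under 0.05, 6 of the 13 were higher (against 13.1% of all genes) and 0 lower by limma. They ranged from -0.22 for myh14, a non-muscle heavy chain, to 0.39 for myl9b, a smooth muscle regulatory light chain with 2394 and 2270 against 2913, 3725 and 2645. The regulatory light chain gene myl12.1 had 6414 and 7312 against 8036, 8691 and 8619 (0.30, adjusted p = 0.0919), and the non-muscle heavy chain gene myh9a had 5554 and 7250 against 8017, 8039 and 7925 (0.33, adjusted p = 0.111). Among the 70 striated members tested, 14 were called higher (20%, against 3.32% of all genes) and the median was 0.32. These 70 take in the unclassed members other than tnni3k, of which 2, myl10 and tnni1al, were called. Whether the striated and the other members differ was not tested.

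Genes that work beside the sarcomere were examined in 7 lists, whose 134 names matched 129 genes. Some names were synonyms, such as mymk and tmem8c. Together 8 of the 129 were called higher (6.20%, against 3.32% of all genes) and 3 lower (2.33%, against 2.68%), and their median was 0.06. Calcium handling had the most calls of the 7 lists. Of 24 genes 4 were called higher (16.7%, against 3.32% of all genes) and 0 lower, with a median of 0.21. At an unadjusted p under 0.05, limma gave 10 of the 24 higher (against 13.1% of all genes) and 1 lower. All 3 calsequestrins, the calcium stores of the sarcoplasmic reticulum, rose. The fast gene casq1a had 3099 and 3692 against 6838, 6706 and 5197 (log2 fold change 0.87, SE 0.14, adjusted p = 0.0158), casq1b had 0.51 (adjusted p = 0.0265) and casq2 0.47 (adjusted p = 0.0350). The parvalbumin pvalb1, a calcium buffer of fast fibres, had 103090 and 117670 against 186670, 180630 and 139480 (0.61, SE 0.15, adjusted p = 0.0473). Its relative pvalb2 had most reads of the list, with 171680 and 182830 against 259250, 246760 and 215700 (0.44, SE 0.13, adjusted p = 0.0781). The fast calcium pump atp2a1 had 0.27 (adjusted p = 0.161).

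Muscle energy metabolism had 0 of 17 genes called by limma (4 higher and 1 lower at an unadjusted p under 0.05) and a median of 0.17. Over all 20307 genes tested, 2661 were higher and 2757 lower at that unadjusted threshold. The muscle creatine kinases ckmb and ckma had 0.17 and 0.08 (adjusted p = 0.399 and 0.668). The muscle membrane complex, which ties the fibre to the matrix, had 0 of 10 genes called (1 in each direction at an unadjusted p under 0.05) and a median of 0.01. The values of dystrophin, dmd, were 2324 and 1989 against 2410, 1959 and 1997 (-0.03), and dystroglycan, dag1, had 0.05.

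Of 34 genes for sarcomere assembly, 1 rose (2.94%, against 3.32% of all genes) and 1 fell (2.94%, against 2.68%), with a median of 0.04. At an unadjusted p under 0.05, limma gave 3 higher and 5 lower. Of all 20307 genes tested, 2661 were higher and 2757 lower at that threshold. The Z-disc adaptor ldb3a had 2802 and 3097 against 4405, 4303 and 3697 (log2 fold change 0.48, SE 0.11, adjusted p = 0.0345), and its copy ldb3b, the most read gene of the list, had 0.24 (adjusted p = 0.142). The hsp90aa1 genes and unc45b had negative values, and of these only hsp90aa1.2 was called. The gene hsp90aa1.2 had 1210 and 1053 against 746, 809 and 848 (-0.50, SE 0.11, adjusted p = 0.0356). The muscle chaperone hsp90aa1.1 had 769 and 1061 against 593, 651 and 662 (-0.51, adjusted p = 0.0637), and the myosin co-chaperone unc45b had 1275 and 1708 against 1200, 1188 and 1199 (-0.30, adjusted p = 0.162). In these 3 genes the groups did not overlap, with the Mutant label below. Of the 34 genes of the list, 5 lay wholly below (against 22.7% of all genes). Another 6 lay wholly above (against 22.3%), and 23 overlapped. The paralogous hsp90aa1 genes are alike and may share reads.

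Regulators of muscle formation had a single call. Of 22, 0 were called higher by limma and 1 lower (4.5%, against 2.68% of all genes), with a median of -0.02. At an unadjusted p under 0.05, limma gave 0 higher and 4 lower of the 22. Over all 20307 genes tested, 2661 were higher and 2757 lower at that threshold. The called gene was prox1a, a homeobox factor of slow muscle, lens, liver and neurons, with 882 and 821 against 658, 612 and 582 (-0.46, SE 0.11, adjusted p = 0.0398). Of the 22 genes, 8 had positive and 14 negative values. The satellite cell factors pax7a and pax7b had -0.58 and -0.37, neither called (adjusted p = 0.0877 and 0.126). The tissue that their reads came from was not tested. The myogenic factor myf5 had 0.39, not called (adjusted p = 0.225), and pax3a and pax3b had -0.20 and -0.05. The differentiation factors myod1 and myog had -0.01 and 0.16. The most read gene, mef2d, had -0.19 (adjusted p = 0.267).

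Among 11 genes of muscle atrophy and protein breakdown, 2 rose (18.2%, against 3.32% of all genes) and 1 fell (9.09%, against 2.68%). The median was 0.28. At an unadjusted p under 0.05, limma gave 4 higher and 2 lower of the 11. Over all 20307 genes tested, 2661 were higher and 2757 lower at that threshold. The calpain capn3b, a calcium-dependent protease, had 77.5 and 107 against 244, 281 and 197 (log2 fold change 1.38, SE 0.20, adjusted p = 0.0127). The tissue that its reads came from was not tested. Its paralogue capn3a had 3836 and 4231 against 3188, 3551 and 2646 (-0.38, not called). The ubiquitin ligase gene trim55a had 290 and 293 against 388, 413 and 425 (0.48, adjusted p = 0.0437), and foxo3a, a transcription factor that drives atrophy genes in mammals, had 2617 and 2181 against 1814, 1669 and 1804 (-0.44, adjusted p = 0.0450). The most read gene, foxo3b, had -0.03. The classical atrophy ligase fbxo32 had 997 and 413 against 904, 780 and 850, so the libraries labelled WT differed from each other more than the groups did.

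In the list of heart regulators and hormones, 1 of 12 genes was called higher (8.33%, against 3.32% of all genes) and 0 lower. The median was 0.00, and at an unadjusted p under 0.05 limma gave 2 higher and 1 lower. Of all 20307 genes tested, 2661 were higher and 2757 lower at that threshold. The natriuretic peptide nppa, made by heart muscle, had 252 and 231 against 406, 385 and 391 (0.70, SE 0.12, adjusted p = 0.0209). The related nppb was near the detection limit, with 7.75 and 1.06 against 19.8, 23.7 and 11.1 (2.12, adjusted p = 0.0692). The third natriuretic peptide gene, nppc, went the other way, with 64.6 and 55.0 against 52.4, 25.8 and 40.4 (-0.64, adjusted p = 0.204). So did hcn4, with 58.5 and 36.0 against 28.7, 18.3 and 18.2 (-1.08, adjusted p = 0.0740). Of the 12 genes, 6 had positive and 6 negative values. The most read gene, gata5, had 0.10.

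**Figure D4:**
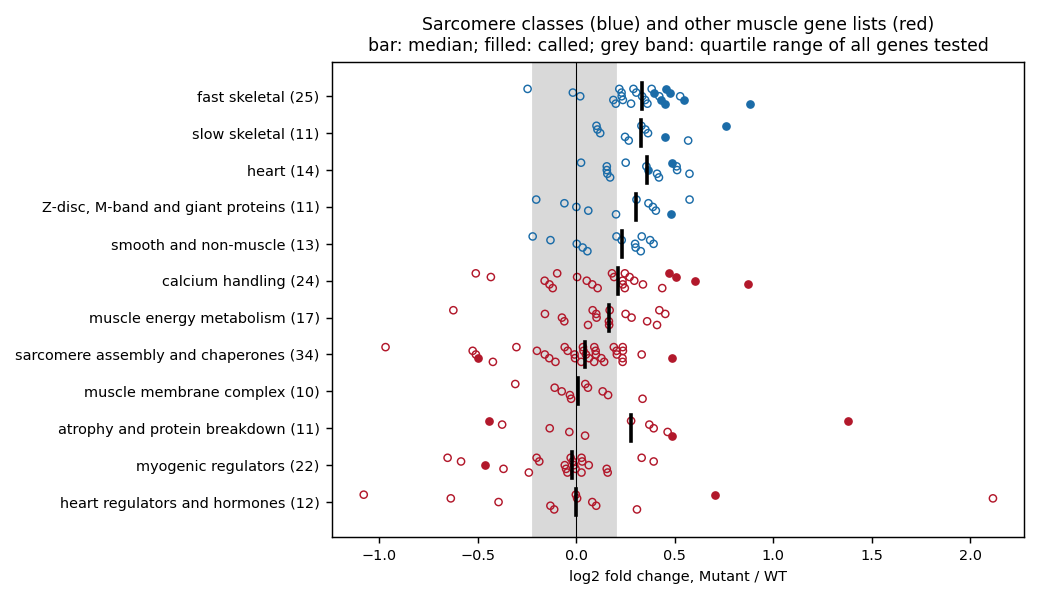
Log2 fold change (Mutant over WT) of each tested gene in 5 sarcomere classes (blue) and 7 other muscle lists (red), with the number of genes in brackets, the median as a black bar and called genes filled. The grey band spans the quartile range of all genes tested (-0.22 to 0.20), and the medians of the 5 sarcomere classes shown lie between 0.23 and 0.36, while the 10 unclassed members, not drawn, had a median of 0.12.

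Marker genes of other tissues also differed between the groups, and none was at 0 in any library. Summed fast muscle markers ranged from 814900 to 849540 scaled counts under the WT label and from 981450 to 1101600 under the Mutant label. Their 8 names matched 7 genes, since mylz2 and mylpfa name the same gene. Summed markers were also higher in the libraries labelled Mutant for liver (6 of 6 found, 97198 to 133990 against 170520 to 204990), epidermis (5 of 5, 252320 to 281890 against 386500 to 397250), cartilage and bone (4 of 5, 23399 to 31644 against 37210 to 52198), fin fold (4 of 4, 15302 to 19975 against 22652 to 27921), gut epithelium (5 of 5, 75677 to 78644 against 84545 to 99343) and red cells (2 of 4, 1788 to 2380 against 3844 to 4937). They were lower for lens and retina (6 of 6, 78714 to 78785 against 55156 to 65109) and for neurons and glia (7 of 7, 28301 to 33341 against 25860 to 27960), and overlapped for exocrine pancreas (6 of 6) and smooth muscle (6 of 6). Within the neurons and glia list, 5 genes had negative log2 fold changes and 2 had positive ones. The 2 positive genes were the glial markers gfap and mbpa, each at 0.13 with overlapping groups. Single genes also overlapped within other sums that did not. These were 3 of 5 in gut epithelium, where anpepb was negative (-0.05), and 2 of 4 in cartilage and bone. Liver, fin fold, and lens and retina had 1 such gene each. The part of these tissue differences in the muscle values was not tested.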

How the data were processed

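Stranded libraries of poly(A) RNA from whole larvae were sequenced in pairs of 50 bases. The authors aligned reads to danRer7 with STAR, adding the junctions found in a first pass, counted them per gene with HTSeq 0.5.3 on Ensembl genes and normalised with DESeq. Use of strand in counting is not given in the sources used here, so antisense and overlapping genes are uncertain. Each deposited value is a signal. After subtracting 1, 100% of low values in each column were whole multiples of 1 step (tolerance 0.05 reads), taken as reads divided by a size factor. No gene summed to under 14.1 scaled counts, and the rule that removed lower genes is not given.

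Values (scaled count plus a pseudocount of 1, log2) were tested two-sided with limma 3.58.1 (R 4.3.3, intensity trend, no covariate) on all genes with a mean of at least 10. Adjusted p-values without a tool named are limma's. The 12 alternatives run were pseudocounts of 0.5 and 8, no filter, a minimum mean of 50, equal totals, quantile normalization, robust empirical Bayes and leaving out each of the 5 libraries. The fit was tested on simulated data. Symbols of 82 members matched the RefSeq table of GRCz12tu, used only for chromosome, gene order and span, since its build differs. Gene lengths in transcripts were not analysed here, so levels are not compared between genes.

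Members and lists were chosen with earlier results of these data known. Named genes were all called members, the 2 with most reads and the 1 with the largest change in each class, and in each list the called genes (at most 4) and the gene with most reads. Other genes named were chosen after their values were seen.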

Additional observations from a re-analysis of the deposited data

How the results depend on the processing

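The count of sarcomere members called higher was 14, and between 13 and 15 under other pseudocounts, filters and robust empirical Bayes. It was 8 with equal totals, where 8 of the same 14 were called, and 8 with quantile normalization, where 7 of the 14 were. Leaving out 1 library gave 0 to 19 (0 without the WT library of column 2 and without Mutant replicate 2, 1 without Mutant replicate 1, 13 and 19 without the others). No setting called a member lower. In the other muscle lists the calls were 8 higher and 3 lower, and equal totals gave 6 lower. Leaving out 1 library gave 0 to 13 higher (11 without Mutant replicate 3) and 0 to 5 lower. Fits with a single WT library assume that it varies like the other group. The cause of these changes was not tested.

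The log2 fold change of ttna was -0.083 with equal totals, -0.17 with quantile normalization, and from -0.073 to 0.077 when a library was left out (-0.0042 without WT column 3 and -0.00066 without Mutant replicate 3). That of ttnb was from -0.20 to 0.070 when a library was left out (0.024 without WT column 2). Equal totals gave -0.038 for dag1, and quantile normalization -0.027 for actc1b and -0.11 for ckmb. Leaving out a library gave 0.10 for foxo3b and -0.016 for dag1 without WT column 2, and from -0.011 to 0.25 for gata5. None of these genes was called in any of those fits. When a library was left out, the ratio of the fast class total was 1.21 to 1.29, and it was 1.18 with equal totals.

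No paired analysis was run, since the labels give no pairing or clutch of the pools. Column numbers 2 and 3 of the WT libraries also could not be tied to single sample titles. The planned edgeR and DESeq2 fits on recovered reads were not run. They were dropped because the deposited columns, with 1 added, did not all pass a test for whole reads as they stand. After subtracting 1, 100% of low values were whole, so the recovered reads would have allowed such fits.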
